A study of Homo sapiens with 8 samples.

Results

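WNT proteins are secreted ligands that bind Frizzled receptors and their co-receptors. In the canonical branch the signal stabilizes beta-catenin, which enters the nucleus and activates target genes together with TCF/LEF factors, whereas ligands such as WNT5A and WNT5B act mainly through beta-catenin-independent branches that steer cell shape and migration. Secreted and membrane-bound antagonists limit the signal, and the pathway has been studied in glioblastoma for its roles in stemness and invasion. Described here are 9 genes of this pathway. They are the ligands WNT5A and WNT5B, the antagonists DKK1, SFRP1 and APCDD1, the dickkopf family member DKK3 and the APCDD1 paralog APCDD1L. The target AXIN2 and the transcription factor LEF1 complete the list. All 9 were found by symbol among 26364 genes of the count file, each with a row of its own. The 9 genes were selected on results of these same libraries, so their differences are given as a description, with fold changes and standard errors but without a test.

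All libraries came from LN229, an established human glioblastoma cell line, grown under 0.75 mg/ml G418 and stably carrying an expression plasmid for Survivin fused to eGFP. Survivin, encoded by BIRC5, is a mitotic regulator and inhibitor of apoptosis. In the Surv-GFP clone the nuclear export signal (NES) of the fusion protein is functional and, in untreated cells, the protein is predominantly cytoplasmic. In the SurvNESmut-GFP clone the substitutions L96A and L98A, leucine to alanine at amino acids 96 and 98, inactivate the NES. There the protein is predominantly nuclear. RNA was taken from untreated cells or after 48 h with 50 µM temozolomide (TMZ), an alkylating drug used against glioblastoma, with 2 libraries (a and b) in each of the 4 groups. The sources do not say whether the untreated cells received the solvent DMSO. The study also reports that the Surv-GFP protein accumulates in the nucleus after TMZ. Comparisons of the TMZ-exposed clones therefore cannot be read as cytoplasmic against nuclear Survivin. Each variant is represented by 1 clone, so NES status and the other differences between these clones cannot be told apart. These differences include the RNA level of BIRC5 itself, which was higher in the Surv-GFP clone with and without TMZ (values in the processing section). The study describes its RNA-Seq data as 2 independent biological replicates, each measured in technical duplicate, but with 2 libraries per group it is not stated which of these the letters a and b mark. Every error below therefore measures only the spread between these libraries, which may be technical.

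Gene counts summed to between 15826923 and 18861603 per library, and 14201 genes passed a filter on low counts, among them 8 of the 9 genes (APCDD1 did not). APCDD1L passed only through its counts in the SurvNESmut-GFP clone. Levels are CPM, counts scaled to a common library size with TMM factors, and fold changes come from a fit of all 8 libraries. The libraries of TMZ-exposed SurvNESmut-GFP cells differed most from each other (chi-square per degree of freedom over genes 5.74, against at most 2.66 in the other groups). Of 8 glial and progenitor markers VIM, NES and CD44 were high in every group and GFAP stood at most at 0.626 CPM in the group means. S100B ran from 777 CPM in untreated Surv-GFP to 16.8 CPM in TMZ-exposed SurvNESmut-GFP cells, SOX2 from 90.7 to 19.6 CPM and OLIG2 from 34.0 to 6.81 CPM. Between the same groups VIM was also lower, at 3740 and 2499 CPM. EGFR (49.8 and 90.2 CPM), CD44 (574 and 732 CPM) and NES (736 and 835 CPM) were higher in the TMZ-exposed SurvNESmut-GFP cells. The sum of the list, in which VIM has the largest share, ranged from 3871 to 6033 CPM over the libraries. The summed levels of 3 oligodendrocyte markers ranged from 78.0 to 534 CPM and of 3 neuronal markers from 50.8 to 171 CPM. MBP was at 0 counts in every Surv-GFP library, and RBFOX3 and MOG were near 0 throughout. The sum of 4 myeloid markers was 11.9 to 21.7 CPM, nearly all of it CD68, which had group means of 12.1 CPM without and 18.1 CPM with TMZ in Surv-GFP and of 15.3 and 20.1 CPM in SurvNESmut-GFP cells, while AIF1 was at 0 in all libraries and PTPRC and CSF1R were near 0. The sum of 3 endothelial markers was at most 0.867 CPM. The part of these marker levels in the differences below was not tested.

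DKK1 is shown with its promoter because it had the largest TMZ-related fold change of the genes measured well above 0 in both clones, and LEF1 is shown beside it because it differed in the opposite direction and encodes a factor that binds the motif searched. The sequences are RefSeq windows of the GRCh38.p14 build, from 250 bases before to 50 bases after the annotated start, and capitals mark the core CTTTGA bound by TCF/LEF factors, searched on both strands.
DKK1, chr10:52314031-52314330, plus strand: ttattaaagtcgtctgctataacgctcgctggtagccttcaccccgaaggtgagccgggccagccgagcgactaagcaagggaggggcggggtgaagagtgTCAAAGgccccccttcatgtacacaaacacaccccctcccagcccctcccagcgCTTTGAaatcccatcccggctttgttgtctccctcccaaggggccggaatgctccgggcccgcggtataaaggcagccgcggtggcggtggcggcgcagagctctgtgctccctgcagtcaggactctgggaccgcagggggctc
LEF1, chr4:108166252-108166551, minus strand: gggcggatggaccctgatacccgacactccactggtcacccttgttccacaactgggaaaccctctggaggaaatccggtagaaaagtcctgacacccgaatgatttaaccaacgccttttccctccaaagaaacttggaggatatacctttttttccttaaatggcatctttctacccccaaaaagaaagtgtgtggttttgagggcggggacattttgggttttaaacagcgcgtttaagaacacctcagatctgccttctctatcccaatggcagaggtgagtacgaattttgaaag
The DKK1 window holds the core 2 times, at -149 and -95 from the start. The LEF1 window does not hold it, nor do the windows of WNT5A, WNT5B and APCDD1, the other genes for which a window was found (5 of 9 genes). Of 35116 RefSeq promoter windows 12.9% hold the core. The AP-1 motif TGANTCA is in 7.71% of the windows and in none of these genes' windows. These matches describe letters in the window and say nothing of binding.

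Among the antagonists, DKK1, which blocks the co-receptors LRP5 and LRP6, differed between all 4 groups. Its level was 2.17 and 2.26 CPM in untreated Surv-GFP cells, 33.7 and 31.2 CPM after TMZ, 80.1 and 76.1 CPM in untreated SurvNESmut-GFP cells and 197 and 173 CPM in the TMZ-exposed ones. No group overlapped with another, and the untreated SurvNESmut-GFP libraries lay above the TMZ-exposed Surv-GFP libraries. The fitted level after TMZ was 14.6-fold higher in Surv-GFP cells (log2 fold change 3.87 ± 0.13 SE) and 2.37-fold higher in SurvNESmut-GFP cells (1.24 ± 0.06 SE). On the log2 scale the TMZ effect was thus 2.63 ± 0.16 (SE) smaller in the SurvNESmut-GFP clone (-2.63). Between untreated clones DKK1 was 35.2-fold higher with SurvNESmut-GFP (5.14 ± 0.11 SE), and with TMZ 5.69-fold higher (2.51 ± 0.07 SE). The counts behind these levels were 40 and 41 in untreated Surv-GFP libraries and 3362 and 2748 in TMZ-exposed SurvNESmut-GFP libraries. PRKG1-AS1, a gene on the opposite strand, shares 212 exonic bases with DKK1 in the GENCODE v29 annotation, and its group means ran from 0.0823 to 0.947 CPM. In bulk RNA a difference in the number of expressing cells and a difference in RNA per cell cannot be told apart, here or for any gene below.

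DKK3, a divergent dickkopf family member, was the most abundant of the 9 genes and differed much less. Untreated Surv-GFP libraries held 628 and 639 CPM and TMZ-exposed ones 559 and 556 CPM, while untreated SurvNESmut-GFP libraries held 425 and 406 CPM and TMZ-exposed ones 474 and 496 CPM. TMZ-exposed libraries were thus below the untreated ones in the Surv-GFP clone (log2 fold change -0.18 ± 0.05 SE) and above them in the SurvNESmut-GFP clone (0.22 ± 0.05 SE). In the untreated state the SurvNESmut-GFP libraries were lower (-0.61 ± 0.05 SE), and with TMZ the gap between clones was -0.20 ± 0.05 SE.

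SFRP1, a secreted protein that binds WNT ligands, was lower after TMZ in both clones and higher in the SurvNESmut-GFP clone in both states. Its level was 142 and 132 CPM in untreated and 93.0 and 103 CPM in TMZ-exposed cells of the Surv-GFP clone. The SurvNESmut-GFP clone held 185 and 177 CPM without and 137 and 148 CPM with TMZ. The log2 fold change after TMZ was -0.48 ± 0.06 SE in Surv-GFP and -0.34 ± 0.06 SE in SurvNESmut-GFP cells, and between untreated clones 0.40 ± 0.06 SE. SFRP1 values of TMZ-exposed SurvNESmut-GFP libraries overlapped with those of untreated Surv-GFP libraries.

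APCDD1, a membrane glycoprotein that antagonizes WNT signalling, was close to the detection limit. It had 9 and 8 counts in untreated Surv-GFP libraries, 2 and 4 after TMZ, 1 and 0 in untreated SurvNESmut-GFP libraries and 0 and 0 with TMZ, where a count of 0 allows up to 3 counts. The TMZ to untreated ratio in the Surv-GFP clone was 0.357 (95% exact interval 0.115 to 0.950), and the ratio of the untreated SurvNESmut-GFP to the untreated Surv-GFP clone 0.0590 (0.00141 to 0.377). With TMZ the ratio of the SurvNESmut-GFP to the Surv-GFP clone was 0 (95% exact interval 0 to 0.930), from 0 against 6 counts. All such intervals cover counting error only. The same holds for the floor of 3 counts used below, which takes the counts of the other group as exact.

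Its paralog APCDD1L showed the widest gap between clones among the 9 genes. It had 1 and 0 counts in untreated and 2 and 4 counts in TMZ-exposed Surv-GFP libraries. In SurvNESmut-GFP libraries it had 6578 and 6213 counts untreated (357 and 345 CPM) and 3694 and 4254 counts with TMZ (216 and 268 CPM). The scaled count of the untreated SurvNESmut-GFP clone was 12837 times that of the untreated Surv-GFP clone (95% exact interval 2304 to 507066), a ratio whose denominator is 1 count. With TMZ the ratio was 1451 (666 to 3956). Within the SurvNESmut-GFP clone both TMZ-exposed libraries were below both untreated ones (log2 fold change -0.54 ± 0.07 SE). For the Surv-GFP clone the ratio after TMZ was 6.07 with an interval of 0.737 to 279, so a difference was not detectable at this depth. APCDD1 and APCDD1L thus lay on opposite sides, with nearly all APCDD1L reads in the SurvNESmut-GFP clone and nearly all of the few APCDD1 reads in the Surv-GFP clone.

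**Figure D1:**
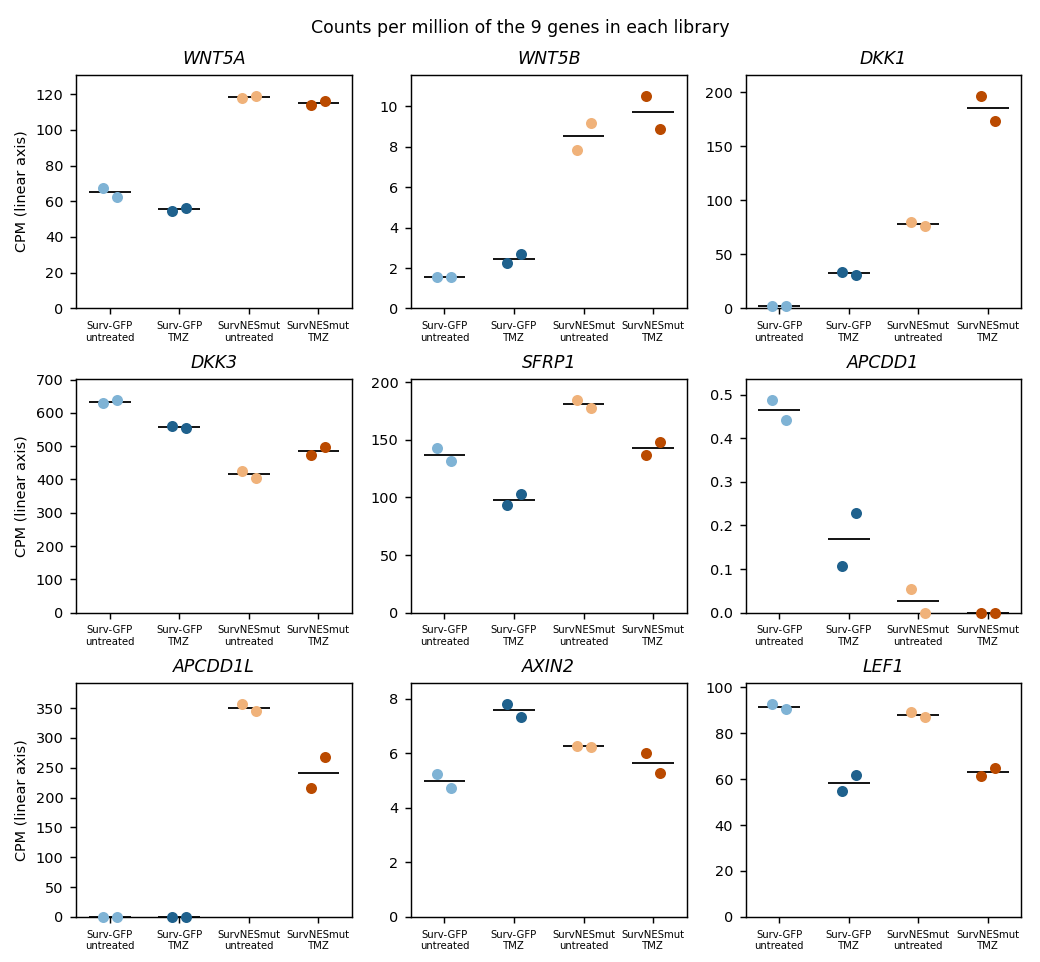
TMM-scaled CPM (linear axes starting at 0, each panel with its own range) of the 9 genes in the 8 libraries; points are libraries a (left) and b (right), black lines the mean of 2 libraries, and SurvNESmut stands for SurvNESmut-GFP. DKK1 steps up from 2.17 CPM in untreated Surv-GFP to 197 CPM in TMZ-exposed SurvNESmut-GFP libraries, and APCDD1L is near 0 in every Surv-GFP library.

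The surroundings of APCDD1L on its chromosome were looked at after its values had been seen, and are given as a description. The divergent transcript APCDD1L-AS1 (APCDD1L-DT in RefSeq), whose gene span shares 21 bases with that of APCDD1L, had 2 and 3 counts in untreated and 4 and 5 in TMZ-exposed Surv-GFP libraries. In SurvNESmut-GFP libraries it had 596 and 563 counts untreated and 401 and 387 with TMZ. Its untreated ratio between clones was 233 (95% exact interval 99.4 to 718). The sources do not say whether the counting used strand, and reads of the shared bases cannot be assigned to either gene. Of the 12 nearest genes with a row in the count file, 6 passed the filter. The adjacent VAPB and STX16 had untreated log2 fold changes between clones of 0.57 ± 0.05 and 0.06 ± 0.05 SE, and RAB22A, PPP4R1L and NPEPL1 of 1.02, 0.44 and 0.48. GNAS-AS1 was lower in the SurvNESmut-GFP clone (-1.24 ± 0.26 SE). Differences of the size seen for APCDD1L and APCDD1L-AS1 were not found in these 6 neighbours.

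**Figure D2:**
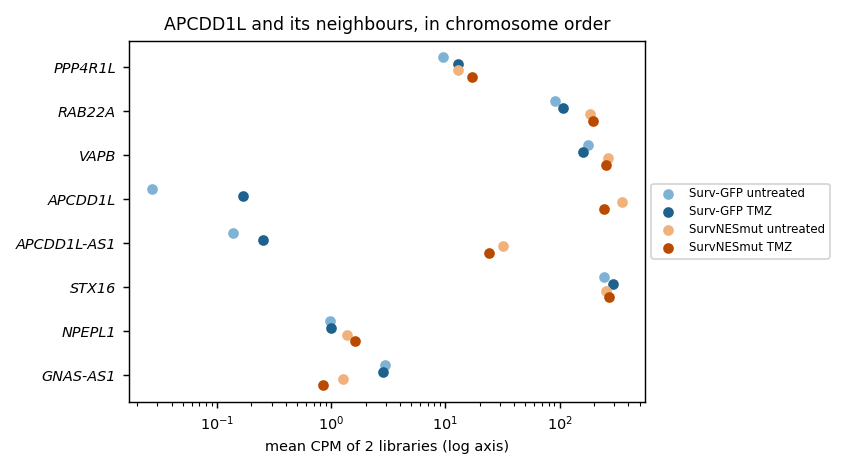
Mean CPM of 2 libraries per group (log axis) for APCDD1L, its divergent transcript and the 6 neighbours that passed the filter, from top to bottom in chromosome order. APCDD1L and APCDD1L-AS1 lie at or below 0.250 CPM in the Surv-GFP and at or above 23.9 CPM in the SurvNESmut-GFP groups, whereas STX16 lies between 246 and 294 CPM in all groups.

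Of the ligands, WNT5A, the best known activator of beta-catenin-independent signalling, was higher in the SurvNESmut-GFP clone. It stood at 67.3 and 62.5 CPM in untreated and 54.8 and 56.0 CPM in TMZ-exposed Surv-GFP cells, against 118 and 119 CPM in untreated and 114 and 116 CPM in TMZ-exposed SurvNESmut-GFP cells. The clones did not overlap in either state (log2 fold change 0.87 ± 0.05 SE untreated and 1.06 ± 0.05 SE with TMZ). The difference after TMZ was -0.23 ± 0.06 SE in the Surv-GFP clone and -0.04 ± 0.05 SE in the SurvNESmut-GFP clone, the latter smaller than its standard error.

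WNT5B, the close relative of WNT5A, had a larger gap between clones at a far lower level. Its values were 1.57 and 1.55 CPM in untreated and 2.25 and 2.70 CPM in TMZ-exposed Surv-GFP libraries, from 28 to 47 counts each. SurvNESmut-GFP libraries held 7.86 and 9.17 CPM untreated and 10.5 and 8.89 CPM with TMZ, and these groups overlapped. The log2 fold change between clones was 2.44 ± 0.19 SE untreated and 1.98 ± 0.17 SE with TMZ. After TMZ it was 0.66 ± 0.25 SE in Surv-GFP and 0.19 ± 0.14 SE in SurvNESmut-GFP cells. Both ligands were therefore higher in the clone that also had the higher DKK1 and APCDD1L levels and the lower DKK3 level.

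AXIN2, a scaffold of the beta-catenin destruction complex and itself a widely used target gene of canonical signalling, was low in all groups. It was measured at 5.26 and 4.75 CPM in untreated and 7.81 and 7.35 CPM in TMZ-exposed Surv-GFP cells, and at 6.29 and 6.22 CPM in untreated and 6.02 and 5.29 CPM in TMZ-exposed SurvNESmut-GFP cells. TMZ-exposed libraries lay above untreated ones in the Surv-GFP clone (0.60 ± 0.14 SE) and slightly below them in the SurvNESmut-GFP clone (-0.14 ± 0.15 SE, smaller than its standard error). The gap between clones was 0.32 ± 0.15 SE untreated and -0.42 ± 0.14 SE with TMZ. In the annotation used here AXIN2 shares 1316 exonic bases with the gene model AC004805.1, which has no row in the count file.

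LEF1, the HMG-box partner of beta-catenin, was lower after TMZ in both clones and nearly equal between them. Its level was 92.6 and 90.5 CPM in untreated and 54.6 and 61.9 CPM in TMZ-exposed Surv-GFP cells, and 89.1 and 86.8 CPM in untreated and 61.2 and 64.9 CPM in TMZ-exposed SurvNESmut-GFP cells. The log2 fold change after TMZ was -0.65 ± 0.06 SE and -0.48 ± 0.06 SE in the respective clones. Between clones it was -0.06 ± 0.06 SE untreated and 0.11 ± 0.06 SE with TMZ, where the groups overlapped, and without library a of TMZ-exposed Surv-GFP cells the latter was -0.01. LEF1-AS1 shares 279 exonic bases with LEF1 and had at most 1.12 CPM in the group means. LEF1 and AXIN2, both readouts of canonical signalling, thus differed in opposite directions after TMZ in the Surv-GFP clone.

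**Figure D3:**
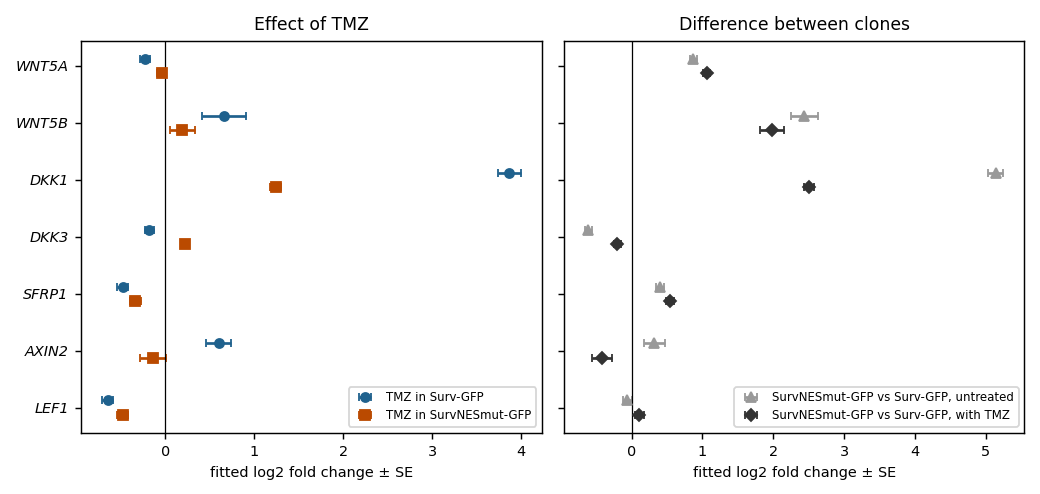
Fitted log2 fold changes (points) with standard errors (bars) of 7 of the 9 genes, after TMZ in each clone (left) and between clones (right); APCDD1 and APCDD1L are left out because of near-zero counts in at least 1 clone. DKK1 is farthest to the right in both panels, at 3.87 and 5.14, and LEF1 and SFRP1 are left of 0 upon TMZ in both clones.

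With 2 libraries against 2, groups that do not overlap are common in these data. Upon TMZ the groups did not overlap for 8 of the 8 genes that passed the filter in the Surv-GFP clone, against 79.6% of all tested genes, and for 7 of 8 in the SurvNESmut-GFP clone, against 68.0%. Between clones this held for 8 of 8 untreated, against 83.1% of all tested genes, and for 7 of 8 with TMZ, against 83.4%. These counts are close to what all genes show, and since the genes were selected on these libraries nothing is read from them.

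Divided by the exon length of each gene (CPM per kilobase, GENCODE v29), DKK3 led in every group, from 137 to 210 CPM per kilobase. In untreated Surv-GFP cells SFRP1 followed with 28.8, LEF1 with 21.8 and WNT5A with 10.2 CPM per kilobase, and DKK1 held 1.24. In untreated SurvNESmut-GFP cells APCDD1L took the place after DKK3 with 102 CPM per kilobase, before DKK1 with 43.6 and SFRP1 with 38.0. TMZ placed DKK1 (103) before APCDD1L (70.6 CPM per kilobase) in this clone. DKK1 thus moved from the fifth place in untreated Surv-GFP cells to the third with TMZ. The library values of neighbours in this order did not overlap, except for APCDD1L and APCDD1 at the end of the order in TMZ-exposed Surv-GFP cells. Some gaps were smaller than the spread between libraries. In TMZ-exposed Surv-GFP cells SFRP1 held 19.5 to 21.6 and DKK1 17.4 to 18.9 CPM per kilobase.

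Genes with the most similar pattern were sought among 4515 tested genes whose group means span at least 1 on the log2 scale, by the Pearson correlation of log2 CPM over the 8 libraries. These libraries form 4 groups of 2, so the coefficients mainly describe 4 group levels and are given without a test. For APCDD1L the closest were the collagen gene COL1A2 (0.9991), APCDD1L-AS1 (0.9985) and NELL2 (0.9984). COL1A2 had mean levels of 3.09 and 4.04 CPM in untreated and TMZ-exposed Surv-GFP cells and of 498 and 331 CPM in the corresponding SurvNESmut-GFP cells. For DKK1 they were CARD10 (0.9976), MCFD2 (0.9968) and MFHAS1 (0.9962). CARD10 means followed the same steps over a narrower range, with 30.9, 115, 160 and 265 CPM in the order in which the DKK1 values are given above. For WNT5A they were SPP1 (0.9982), ZIC1 (0.9977) and the collagen gene COL4A2 (0.9973).

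The rest of the pathway was represented by 102 genes in 9 roles, a list that leaves out the 9 genes above, which were chosen for their values. This list too was drawn up with earlier results of these data known, which limits its shares and p-values. Of the 102 genes 70 passed the filter and were tested with edgeR's quasi-likelihood test (Benjamini-Hochberg adjusted p under 0.05 over all 14201 genes). In the Surv-GFP clone 15 rose upon TMZ (21.4%) and 30 fell (42.9%), against 30.1% and 28.9% of all tested genes, with a median log2 fold change of -0.21 beside 0 over all genes. In the SurvNESmut-GFP clone 14 rose (20%) and 20 fell (28.6%), against 18.6% and 19.1% of all tested genes, with a median of -0.01. Of 14 receptors and co-receptors 2 rose (14.3%) and 8 fell (57.1%) in the Surv-GFP clone, and 2 rose (14.3%) and 7 fell (50%) in the SurvNESmut-GFP clone. The Frizzled receptor FZD7 was at 258 and 228 CPM in untreated and 74.4 and 89.7 CPM in TMZ-exposed Surv-GFP cells, and at 72.2 and 71.9 CPM in untreated and 22.8 and 32.7 CPM in TMZ-exposed SurvNESmut-GFP cells. It fell in both clones (log2 fold change -1.57 ± 0.10 SE, adjusted p = 8.9e-10, and -1.38 ± 0.12 SE, adjusted p = 1.8e-07), as did FZD9 (-1.88, adjusted p = 1e-06, and -1.46, adjusted p = 0.00017). LRP6, the co-receptor that DKK1 blocks, fell by 0.25 in Surv-GFP and by 0.41 in SurvNESmut-GFP cells on the log2 scale (adjusted p = 4e-04 and 1.9e-05). CTNNB1, which encodes beta-catenin, fell by 0.54 and 0.55 (adjusted p = 7.5e-08 and 2.1e-07) and its partner TCF7L2 by 0.40 and 0.41 (adjusted p = 0.00022 and 0.0012). ROR2, a receptor for WNT5A, had 0 counts in all 8 libraries. Other receptors of the list were expressed, with group means of 5.05 to 11.6 CPM for ROR1 and 66.5 to 82.0 CPM for RYK. ROR1 and RYK are named here after their values were seen.

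Of 6 tested target genes outside the 9, 2 rose (MYC and CCND1, 33.3%) and 1 fell (SP5, 16.7%) upon TMZ in the Surv-GFP clone. The shares of all tested genes there were 30.1% and 28.9%. In the SurvNESmut-GFP clone 2 rose (MYC and CCND1, 33.3%) and 2 fell (NKD1 and TNFRSF19, 33.3%), against 18.6% and 19.1% of all tested genes. With 6 genes nothing is read from these counts. CCND1, SP5 and TNFRSF19 are named here after their values were seen, to complete these counts. CCND1, which encodes cyclin D1, had log2 fold changes of 0.62 (adjusted p = 4.8e-08) and 0.23 (adjusted p = 0.0023). TNFRSF19 was at -0.19 (adjusted p = 0.13) in Surv-GFP and -0.70 (adjusted p = 0.00016) in SurvNESmut-GFP cells. The fall of SP5 in Surv-GFP cells (-0.68, adjusted p = 0.032) did not hold without untreated library a (adjusted p = 0.37) or without TMZ-exposed library a or b (adjusted p = 0.16 and 0.05). MYC rose by 1.58 ± 0.20 SE on the log2 scale upon TMZ in the Surv-GFP clone (adjusted p = 4.1e-06) and by 0.65 ± 0.16 SE in the SurvNESmut-GFP clone (adjusted p = 0.0039), the latter call being lost without library a of the TMZ-exposed cells (0.24, adjusted p = 0.12). NKD1, a negative feedback regulator, had 18 and 15 counts in untreated and 1 and 6 in TMZ-exposed SurvNESmut-GFP libraries. Its fall (-2.06 ± 0.65 SE, adjusted p = 0.019) did not hold without either untreated library of that clone (adjusted p = 0.11 without a and 0.064 without b) or without TMZ-exposed library a (adjusted p = 0.17). CELSR1, an atypical cadherin of planar cell polarity, rose in both clones (0.95, adjusted p = 2.9e-09 in Surv-GFP and 1.25, adjusted p = 3.2e-08 in SurvNESmut-GFP cells). The ligand gene WNT6 had 10 and 4 counts in untreated and 1 and 2 in TMZ-exposed Surv-GFP libraries, a ratio of 0.217 (95% exact interval 0.0400 to 0.777). Its adjusted p of 0.024 became 0.29 without untreated library a and 0.15 without TMZ-exposed library a.

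The TMZ effects of the clones differed for 29 of the 70 genes. The log2 fold change was more positive in the SurvNESmut-GFP clone for 19 (27.1%) and more negative for 10 (14.3%), against 16.6% and 20.2% of all tested genes. With library size as the only scaling these were 25 and 8, so that the share of more positive ones among the called genes moved from 65.5% to 75.8%. Of 11 nuclear effectors 8 were more positive (72.7%) and 1 more negative (9.09%). PRICKLE1, a planar cell polarity gene, fell upon TMZ in Surv-GFP cells (-0.52, adjusted p = 0.0012) and rose in SurvNESmut-GFP cells (0.72, adjusted p = 0.00056).

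Between clones, 22 of the 70 pathway genes were higher (31.4%) and 31 lower (44.3%) in untreated SurvNESmut-GFP cells, against 34.7% and 29.4% of all tested genes. With TMZ 27 were higher (38.6%) and 28 lower (40.0%), against 34.5% and 34.7% of all tested genes. VANGL2, a core planar cell polarity gene, was at 804 and 770 counts in untreated and 649 and 648 counts in TMZ-exposed Surv-GFP libraries and at 0 in all SurvNESmut-GFP libraries. It was at least 523-fold lower in the untreated and at least 395-fold lower in the TMZ-exposed SurvNESmut-GFP clone, with the floor of 3 counts over the group. WNT6 was 12.4 times as abundant in untreated SurvNESmut-GFP cells (173 against 14 counts, log2 fold change 3.61, adjusted p = 2.4e-08). CELSR3 was also higher (3.20 ± 0.09 SE, adjusted p = 1.8e-14), as was NOTUM, which inactivates WNT ligands, with TMZ (2.46 ± 0.21 SE, adjusted p = 1.8e-08). The ubiquitin ligase gene RNF43, which removes Frizzled receptors from the membrane, was lower (-3.68 ± 0.28 SE, adjusted p = 7.1e-09), and so was FZD7 (-1.75 ± 0.10 SE, adjusted p = 1.9e-10). Higher WNT5A, WNT5B, DKK1, SFRP1 and APCDD1L levels in the untreated SurvNESmut-GFP clone were thus measured beside lower FZD7 and LRP6 (-0.53 ± 0.05 SE, adjusted p = 1.4e-07) and higher CTNNB1 (0.38 ± 0.05 SE, adjusted p = 3.7e-06). The other genes described here did not share 1 direction. AXIN2 was higher (0.32 ± 0.15 SE), DKK3 lower (-0.61 ± 0.05 SE) and LEF1 nearly equal (-0.06 ± 0.06 SE). APCDD1 had 1 count in the untreated SurvNESmut-GFP against 17 in the untreated Surv-GFP clone. Receptors did not all go 1 way. Of 14 receptors and co-receptors 4 were higher (28.6%) and 8 lower (57.1%) in this untreated comparison. LRP5, named here after its values were seen, had means of 83.6 CPM in untreated Surv-GFP and 102 CPM in untreated SurvNESmut-GFP cells.

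**Figure D4:**
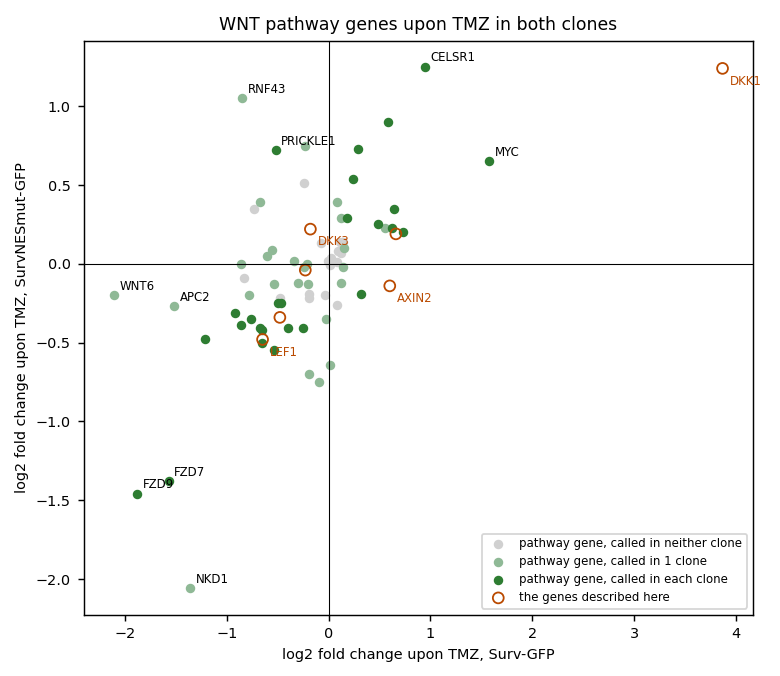
Log2 fold change upon TMZ in Surv-GFP (horizontal axis) and SurvNESmut-GFP cells (vertical axis); filled points are the tested pathway genes except VANGL2 (0 counts in SurvNESmut-GFP), shaded by whether they passed the test in neither, 1 or each clone, and open circles are 7 of the 9 genes described. DKK1 lies far to the right at 3.87 and 1.24, FZD7 and FZD9 are at the lower left, and PRICKLE1 and DKK3 are at the upper left.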

How the data were processed

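The authors sequenced RNA of 2 LN229 clones (Illumina). The submitters' processing notes name STAR 2.5.0b, Cufflinks 2.2.1 and edgeR without their roles, and the build, annotation, counting program and strand setting were not given in the sources used. No coordinates are therefore given for the counted genes; those of the promoter windows are of GRCh38.p14, and the order of neighbouring genes is that of GENCODE v29. The deposited counts are whole reads per gene symbol, not normalized, in 26364 gene rows; 2 further rows without a gene were left out (ambiguous reads 1.19 to 1.28% and reads on no feature 11.2 to 14.3%). The authors' 5 comparison tables (log2 fold change, average log2 CPM, F, p and FDR) were not used. Libraries were grouped by their labels. The 9 genes and the gene lists were chosen with earlier results of these data known.

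The counts were fitted with edgeR 4.0.16 under R 4.3.3 (TMM, filterByExpr by group, quasi-likelihood as before version 4), with 4 group means in 1 model and Benjamini-Hochberg adjustment. The method was tested on simulated data. Of the pathway genes, those named were, per comparison, at most the 4 with the largest fold change past an adjusted p of 0.05 and without overlap. CTNNB1, TCF7L2, LRP6, FZD7, ROR2 and NKD1 were always named. Their values in other comparisons are given where they bear on the text. Further genes are marked where they are named after their values were seen. Differences a minus b correlated between groups by -0.067 to 0.083 over genes, so letters were not treated as pairs. No 2 libraries were duplicates. BIRC5, read from transgene and endogenous gene alike, averaged 1133 and 1984 CPM in untreated and TMZ-exposed Surv-GFP and 411 and 258 CPM in SurvNESmut-GFP cells. The clones thus differed in BIRC5 RNA in both states, and its level after TMZ was higher in Surv-GFP and lower in SurvNESmut-GFP cells. The part of this in the differences between clones or between TMZ effects was not tested. Alternatives were DESeq2 1.42.0, other scalings and filters, a replicate block and leaving out each library.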

Additional observations from a re-analysis of the deposited data

Results flagged for a closer look

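For 4 pathway genes the TMZ effect differed between the clones in edgeR's quasi-likelihood test of the difference itself (SurvNESmut-GFP minus Surv-GFP, log2 scale). The difference was 1.89 ± 0.46 SE for RNF43 (adjusted p = 0.0041), which had 112 and 109 counts in untreated and 55 and 66 in TMZ-exposed Surv-GFP libraries, and 7 and 10 against 13 and 19 in SurvNESmut-GFP libraries. It was 1.25 ± 0.30 SE for APC2 (adjusted p = 0.0033) and 1.24 ± 0.18 SE for PRICKLE1 (adjusted p = 5.6e-05). SP5 differed by 1.07 ± 0.30 SE (adjusted p = 0.011), a call that did not hold without library a of untreated (adjusted p = 0.12) or of TMZ-exposed Surv-GFP cells (adjusted p = 0.055).

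For 3 of the 9 genes the TMZ-exposed libraries lay on one side of the untreated ones in the Surv-GFP clone and on the other side in the SurvNESmut-GFP clone. The difference of the TMZ effects was not tested because the genes were selected on these libraries. It was 0.41 ± 0.07 SE for DKK3. For AXIN2 it was -0.74 ± 0.20 SE, with a value within the SurvNESmut-GFP clone that was smaller than its standard error. For APCDD1L it was -2.87 ± 1.56 SE, which rests on 1 count in the untreated and 6 in the TMZ-exposed Surv-GFP libraries together, so that a direction in this clone was not detectable. Without library a of untreated Surv-GFP cells, which holds the 1 count, it was -5.15, and over all libraries left out in turn it ran from -5.15 to -2.04.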

How the results depend on the processing

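The counts of pathway genes that rose or fell stayed within 1.5 times their reported value in all 158 alternatives that gave a value. Over the libraries left out in turn, the 15 and 30 genes that rose and fell upon TMZ in Surv-GFP cells became 11 to 17 and 25 to 31, and the 14 and 20 in SurvNESmut-GFP cells 12 to 17 and 15 to 22. With a library left out, the spread of the lone remaining one is taken from the other groups. With the replicate block the counts were 14 and 30 in Surv-GFP and 14 and 20 in SurvNESmut-GFP cells. No pair of groups correlated by over 0.1 in the differences a minus b. This does not settle whether libraries of the same letter share a culture or a batch. Of single values named for pathway genes, 25 lost and 17 gained their call in an alternative, 1211 kept it and 0 changed direction. Of 631 alternative values for the 9 genes, 65 moved by more than the replicate spread, and the only 1 to change sign was LEF1 between TMZ-exposed clones, from 0.11 to -0.01 without library a of TMZ-exposed Surv-GFP cells (range over libraries left out -0.01 to 0.20). Upon TMZ, DKK1 stayed between 3.81 and 3.90 in Surv-GFP and between 1.15 and 1.34 in SurvNESmut-GFP cells when libraries were left out. Depth limits APCDD1 in all groups and APCDD1L in the Surv-GFP clone.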
